A study of Mus musculus with 2 samples.

Results

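Cells carrying RNA of major histocompatibility complex (MHC) class II were described in droplet libraries of mouse retinal pigment epithelium (RPE) with choroid. Barcodes with 500 or more genes and no more than 25% mitochondrial counts entered. Members were chosen by measured RNA: the summed level of Cd74, H2-Ab1, H2-Aa and H2-Eb1 had to reach 30 counts per 10000 of the barcode, and that of the RPE genes Rpe65, Rlbp1, Rgr, Lrat and Rdh5 had to stay under 100. Of 8331 kept barcodes 133 were members, 88 of 4387 in the PBS library and 45 of 3944 in the NaIO3 library. The mice were C57BL/6J (genotype label C57BL/6), with no further allele named in either group. Their age was not stated. Mice of 1 group had intravenous sodium iodate (NaIO3), an oxidant toxic to the RPE, at 20 mg/kg, those of the other the same volume of its solvent, phosphate-buffered saline (PBS), and both labels give 7 days of treatment. A group was a pool of eyes from 6 mice and 1 library, so no difference below has a replicate check and no p-value is given. Cells were picked by eye as brownish and hexagonal beforehand, a step directed at pigment cells.

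MHC class II molecules hold peptides of ingested protein at the cell surface for helper T cells. The alpha and beta chains are built together with the invariant chain (Cd74), which fills the groove until lysosomal proteases cut it down. The exchange factor H2-M then loads peptides, and H2-O, found mainly in B cells and dendritic cells, holds H2-M back. The transactivator CIITA switches these genes on together through an enhanceosome that sits on X and Y boxes in their promoters. In the choroid the class II cells are dendritic cells and a part of the tissue macrophages. Type 1 conventional dendritic cells carry Xcr1 and Clec9a, type 2 cells carry Cd209a and Mgl2, and resident macrophages carry C1q genes, Mrc1, Folr2 and Lyve1.

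Promoters are shown for 4 class II genes, because the shared boxes in them are what ties the genes of this pathway together. Of 10 class II genes looked up, 8 had a window from 250 bases before to 50 bases after the start in the RefSeq table (build GRCm38.p6), which leaves H2-Ab1 and Ciita. Capitals mark the Y box core (TGATTGG) and an X box core (CNAGNAAC) on either strand. The windows are chr17:34287774-34288073 on the minus strand for H2-Aa, and on the plus strand chr17:34305617-34305916 for H2-Eb1, chr17:34152941-34153240 for H2-DMb1 and chr17:34238655-34238954 for H2-Ob.
H2-Aa: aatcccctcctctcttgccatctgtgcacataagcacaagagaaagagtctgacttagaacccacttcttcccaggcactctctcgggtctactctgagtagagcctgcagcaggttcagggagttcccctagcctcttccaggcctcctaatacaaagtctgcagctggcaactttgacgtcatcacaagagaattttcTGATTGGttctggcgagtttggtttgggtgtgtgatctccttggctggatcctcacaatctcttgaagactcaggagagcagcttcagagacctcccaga
H2-Eb1: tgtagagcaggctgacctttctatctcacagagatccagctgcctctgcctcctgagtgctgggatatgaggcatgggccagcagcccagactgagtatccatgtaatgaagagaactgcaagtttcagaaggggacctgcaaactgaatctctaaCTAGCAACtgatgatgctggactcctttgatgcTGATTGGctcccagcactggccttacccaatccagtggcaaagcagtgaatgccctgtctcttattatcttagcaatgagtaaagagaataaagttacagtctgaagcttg
H2-DMb1: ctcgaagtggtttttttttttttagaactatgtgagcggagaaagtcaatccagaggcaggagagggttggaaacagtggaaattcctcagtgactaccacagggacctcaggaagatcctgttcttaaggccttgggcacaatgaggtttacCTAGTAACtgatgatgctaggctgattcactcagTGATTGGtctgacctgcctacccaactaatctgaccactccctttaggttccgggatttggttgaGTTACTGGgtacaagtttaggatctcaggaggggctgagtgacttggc
H2-Ob: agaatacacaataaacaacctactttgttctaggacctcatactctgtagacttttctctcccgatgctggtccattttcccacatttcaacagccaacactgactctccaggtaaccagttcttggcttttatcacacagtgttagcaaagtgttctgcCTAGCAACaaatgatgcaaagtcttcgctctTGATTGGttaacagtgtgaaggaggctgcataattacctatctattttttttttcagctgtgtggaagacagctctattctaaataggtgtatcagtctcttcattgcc

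Among the windows of the 8 genes, the Y core stood in those of H2-Aa, H2-Eb1, H2-Eb2, H2-DMb1, H2-DMb2, H2-Oa and H2-Ob, and in neither of the 2 windows of H2-DMa. An X core upstream of the Y core on the coding strand was found for H2-Eb1 and H2-Eb2 (25 bases between the cores), H2-DMb1 and H2-Oa (26 bases) and H2-Ob (23 bases). Over 32851 windows of 300 bases, 7.82% held the Y core, 13.8% the X core, and 0.0913% an X core followed by a Y core within 40 bases. A match is to letters only, and other forms of the boxes were not searched.

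Members made up 2.01% of kept barcodes in PBS (1.61 to 2.47, Clopper-Pearson) and 1.14% in NaIO3 (0.833 to 1.52). All intervals are exact at the 95% level and cover counting error alone, and UMIs of 1 pool are no replicates. Among barcodes under the RPE limit the shares were 11.6% of 760 and 2.69% of 1674. Of the barcodes with leukocyte RNA, 86 of 140 in PBS (61.4%, 52.8 to 69.5) and 45 of 582 in NaIO3 (7.73%, 5.70 to 10.2) met the class II minimum, beside 54 and 537 class II-low leukocyte barcodes. A share of this kind depends on how many RPE cells and other leukocytes were collected, and fewer class II cells and more of the others cannot be told apart.

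The summed counts behind the members were 443982 unique molecular identifiers (UMIs) in PBS and 350000 in NaIO3. The median barcode had 4367.5 UMIs and 1568.5 genes in PBS, and 6626 UMIs and 2071 genes in NaIO3. The smallest had 3054 and 4517 UMIs, so shares of barcodes with a UMI are given at an equal depth of 3000 UMIs. RPE barcodes, with medians of 11491 and 9724.5 UMIs, served as the background of free RNA. The libraries shared 24 barcode sequences, among them that of 1 PBS member, and no barcode sequence was a member in both. Scrublet scores placed 1 PBS member and no NaIO3 member among the likely doublets. Levels are counts per 1000000 (CPM) of the summed UMIs and compare libraries or subsets for a gene, not genes with each other.

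The label of antigen-presenting cells was checked against markers. All 10 general leukocyte genes were detected, and their summed level was 8874 CPM in PBS members and 9834 CPM in NaIO3 members, against 42.4 and 572 CPM in the RPE barcodes. Markers of B cells (7 genes matched) summed to 45.05 and 8.57 CPM in PBS and NaIO3 members, and those of T and NK cells (11 genes) to 29.3 and 54.3 CPM. Neutrophil markers (7 genes) summed to 29.3 and 28.6 CPM and mast cell markers (7 genes) to 11.3 and 17.1 CPM. Pax5, Cd8a, Ly6g and Fcer1a were at 0 in both libraries. Cd79b of B cells was found in 12 of 88 and 3 of 45 barcodes, and Cd4 of T cells in 0 of 88 and 5 of 45 barcodes. RPE markers summed to 22348 and 11429 CPM in the members, against 176818 and 123019 CPM in RPE barcodes, and fibroblast markers to 543 and 45.7 CPM. Surface epithelium markers summed to 2113 and 1320.0 CPM (272.5 and 1813 CPM in RPE barcodes), rod markers to 1514 and 1589 CPM (865 and 337 CPM), and plasmacytoid dendritic markers to 577 and 577 CPM (195 and 270.3 CPM). Cd207, which defines Langerhans cells, had 0 and 2 UMIs. Cd209a was found in 15 of 88 and 5 of 45 barcodes and Xcr1 in 8 of 88 and 10 of 45 barcodes, while C1qa was found in 62 of 88 and 40 of 45 barcodes. The members hold both barcodes with dendritic genes and barcodes with macrophage genes, so the name does not stand for 1 cell type. A sum of at least 40 counts per 10000 over markers of surface epithelium, fibroblasts, endothelium, mural cells or rods marked mixed barcodes, and without them 78 PBS and 43 NaIO3 members are left.

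Class II RNA spread widely over the members. The class II sum, which the rule used, ran in PBS from 31.1 through a median of 361 to 1271 counts per 10000, and in NaIO3 from 31.1 through 518 to 1007. The ranges overlapped fully. A sum of at least 300 was found in 50 PBS and 28 NaIO3 barcodes, while the lower quartile was 152 in PBS and 86.1 in NaIO3. All 4 genes were detected together in 80 of 88 and 41 of 45 barcodes. The lowest members had sums of 31.07 and 31.10, and the highest barcodes just outside had 25.6 and 28.3. At the RPE limit the members nearest to it had 96.4 and 37.6, and those just outside 116 and 142, with 9 PBS and 2 NaIO3 barcodes left out by that limit alone. As summed levels, Cd74 was at 22571 CPM (22131 to 23017) in PBS and 20986 CPM (20509 to 21471) in NaIO3. H2-Aa (ENSMUSG00000036594, chromosome 17, 34282744 to 34287823) was at 5766 CPM (5545 to 5994) in PBS and 6314 CPM (6054 to 6583) in NaIO3. H2-Ab1 was at 6117 CPM (5889 to 6352) in PBS and 6931 CPM (6658 to 7213) in NaIO3, and H2-Eb1 at 5088 CPM (4880.4 to 5302) in PBS and 4809 CPM (4582 to 5044) in NaIO3. The ratios of NaIO3 over PBS of these 4 genes lay between 0.93 and 1.13, so none was 2-fold apart. The rule chose members by these genes in both libraries, so no lack of change is read from this. H2-Eb2, a second beta chain gene, had 0 and 2 UMIs.

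**Figure D1:**
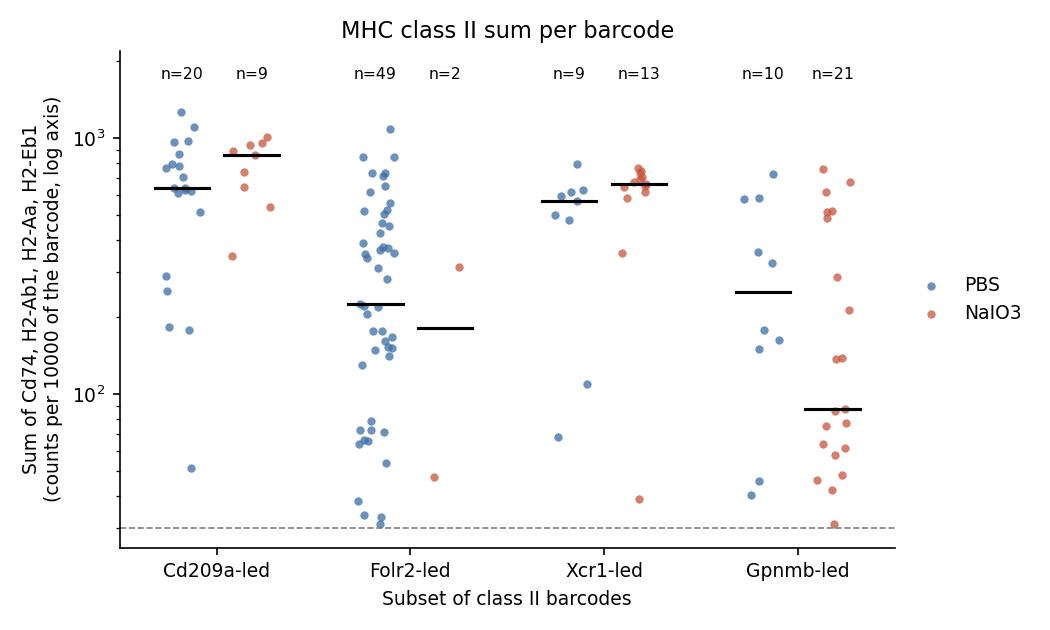
Each point is 1 member barcode: its sum of 4 class II genes in counts per 10000 (log axis) by subset (named by a leading gene) and library, with medians as black bars and the rule's minimum of 30 as a dashed line. The Cd209a-led and Xcr1-led subsets had medians between 570.0 and 859, and the Gpnmb-led subset had medians of 251 in PBS and 87.6 in NaIO3.

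Clustering of all members without the 4 class II genes gave 4 subsets, which are a description of these barcodes and carry no test. Subset 1 was led by Cd209a, with Klrd1, Tnip3 and Mcemp1 among its leading genes, and is called type 2 dendritic-like from 6 of 10 markers at least 2-fold over the other members, 3 of them among its leading 10 genes. Of the migratory dendritic markers 8 of 11 reached that fold, with 2 among the leading 10. Fscn1 and Ccr7 also led it, with 2 barcodes holding all of either gene in the subset. It held 20 PBS and 9 NaIO3 barcodes. Subset 2 was led by Folr2, Cd163, F13a1, Ccl8 and Ccl12 and held 49 and 2 barcodes. It is called resident macrophage-like from 13 of 15 markers at least 2-fold over the other members. Of the microglia markers 6 of 9 also reached that fold, and of the fibroblast markers 4 of 6. Dcn and Col1a1 of fibroblasts also led subset 2, with 74.0% and 79.3% of their UMIs in the subset from 1 barcode. Subset 3 had Xcr1 as its second gene and 8 of 9 type 1 dendritic markers at least 2-fold over the other members. It also had 7 of 8 rod and 6 of 9 surface epithelium markers at that fold, and genes known from surface epithelium such as Psca and Lypd2 stood beside it, 59.2% and 77.6% of them from 1 barcode, so it stays unnamed (9 and 13 barcodes). Subset 4 was led by Atp6v0d2, Fabp5, Il18bp, Gpnmb, Hpse, Mmp12 and Acp5 and also stays unnamed (10 and 21 barcodes). Because the genes that define the subsets differ between the libraries, their sizes are not compared. With 2 NaIO3 barcodes, subset 2 gives no usable level for that library. In PBS 2 barcodes of subset 3 held 21939 and 11396 of its 80437 UMIs, at class II sums of 109 and 67.6. Its PBS levels lean on them.

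**Figure D2:**
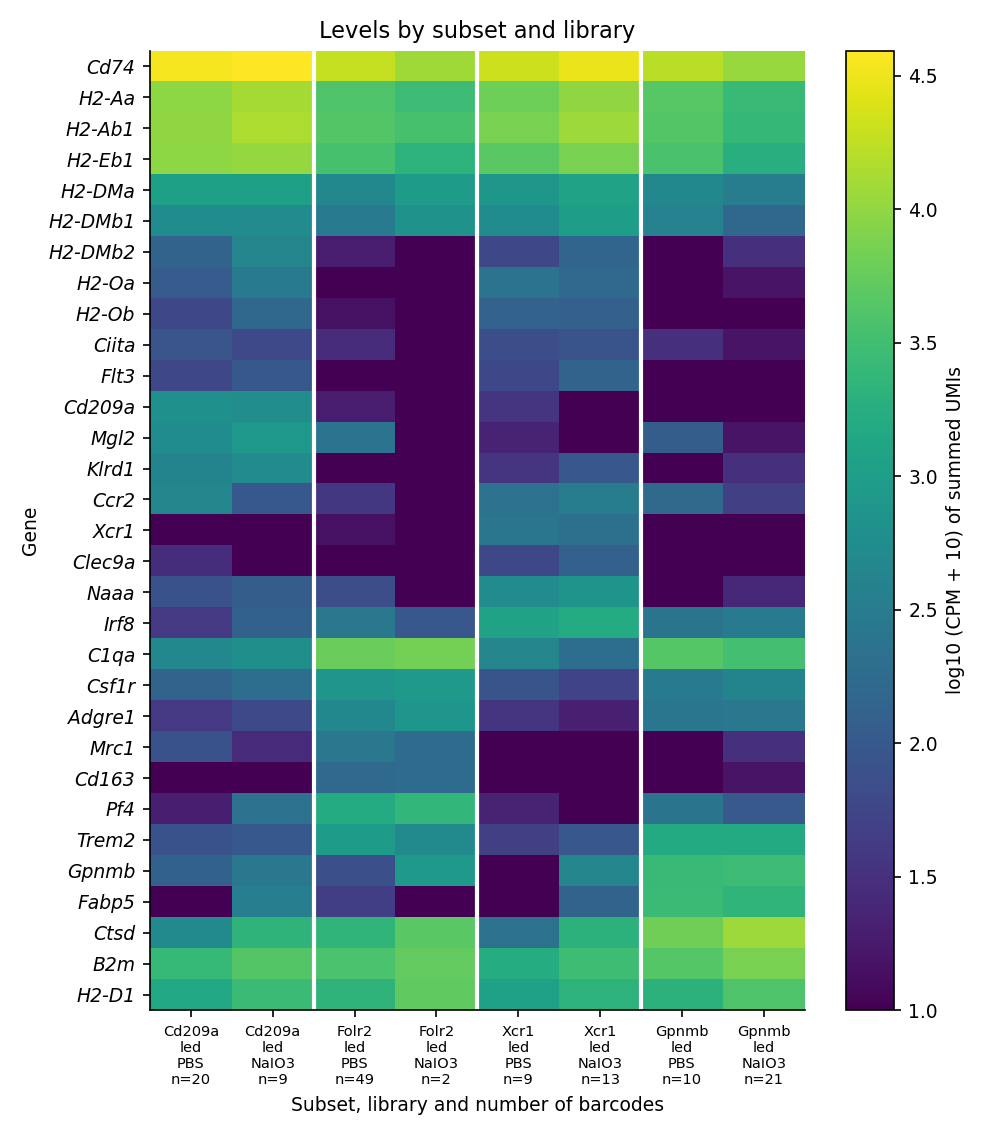
Colour gives log10 of CPM plus 10 for each gene (rows) in each subset and library (columns, with the number of barcodes). Within their rows, Flt3, H2-Oa and H2-Ob are less dark in the Cd209a-led and Xcr1-led columns than in the other columns. Their levels are low, with H2-Ob at 49.9 CPM in the Cd209a-led PBS column. C1qa, Csf1r and Trem2 are bright in the Folr2-led and Gpnmb-led columns, of which the Folr2-led NaIO3 column has 2 barcodes.

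The Cd209a-led and Xcr1-led barcodes carried the class II genes at higher levels than the Gpnmb-led ones in both libraries. In the Cd209a-led subset Cd74 was at 35064 and 39300.2 CPM in PBS and NaIO3, and in the Xcr1-led subset at 20612 and 30605 CPM. It was at 16815 and 11061 CPM in the Gpnmb-led subset. H2-Ab1 stood likewise at 9893 and 14125 CPM in the Cd209a-led, 7359.8 and 11802 CPM in the Xcr1-led and 4293 and 2476 CPM in the Gpnmb-led barcodes. For all 4 class II genes NaIO3 was above PBS in the Cd209a-led and Xcr1-led barcodes and below it in the Gpnmb-led ones, a description of values that the rule used and truncated at its minimum. The median class II sum per barcode in these subsets was 639 and 859, 570.0 and 665, and 251 and 87.6 counts per 10000. The lowest Gpnmb-led NaIO3 barcode was at 31.1, at the minimum of the rule.

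Genes of peptide loading and of class II transcription were read at lower depth. H2-DMa, the alpha chain of H2-M, was at 664 CPM (591 to 745) in PBS and 700 CPM (615 to 793) in NaIO3. Its partner H2-DMb1 was at 409.9 and 454 CPM, and neither was 2-fold apart. H2-DMb2, the other beta chain gene, was at 42.8 CPM (25.8 to 66.8) in PBS and 117 CPM (84.1 to 159) in NaIO3, a ratio of 2.74 (1.55 to 4.99), and was the 1 of 5 loading genes at 2-fold or more (5.36% of all genes compared were that much higher and 6.78% that much lower). H2-DMb1 and H2-DMb2 are neighbouring and closely similar genes, and the treatment of reads that match both is not stated, so the split between them is uncertain. H2-DMb2 was found in 9.09% (4.01 to 17.1) in PBS and 24.4% (12.9 to 39.5) in NaIO3 of barcodes at 3000 UMIs, with 0.2% and 0% in RPE barcodes, and without thinning in 12.5% and 42.2%. H2-Oa and H2-Ob, the chains of H2-O, were at 63.1 and 94.3 CPM and 36.0 and 57.1 CPM in PBS and NaIO3, with ratio intervals that include 1. The median log2 ratio of the 5 loading genes was 0.58, beside 0.0066 over all 4424 genes tested. In members with at least 2 UMIs of C1q genes (64 of 88 and 42 of 45 barcodes) it was 2.46. RPE barcodes had a UMI of C1qa in 13.5% in PBS and 88.2% in NaIO3. Passing this filter therefore does not mean the same in both libraries, and the part of free RNA in it was not tested. Ciita (chromosome 16) was at 40.5 CPM (24.0 to 64.1) in PBS and 31.4 CPM (15.7 to 56.2) in NaIO3, with 18 and 11 UMIs in all.

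Most UMIs of the H2-O chains and of Ciita lay in the Cd209a-led and Xcr1-led barcodes. H2-Oa had 10 and 17 UMIs in the Cd209a-led and 18 and 15 in the Xcr1-led barcodes of PBS and NaIO3, against 0 and 0 in the Folr2-led and 0 and 1 in the Gpnmb-led ones. H2-Ob had 5 and 9 UMIs in the Cd209a-led, 10 and 11 in the Xcr1-led, 1 and 0 in the Folr2-led and 0 and 0 in the Gpnmb-led barcodes. Ciita had 8 and 3 UMIs in the Cd209a-led, 5 and 7 in the Xcr1-led, 4 and 0 in the Folr2-led and 1 and 1 in the Gpnmb-led barcodes. Flt3, the growth factor receptor of dendritic cells, had 5 and 5 UMIs in the Cd209a-led, 4 and 12 in the Xcr1-led and none in the other 2 subsets. Such counts are small, and a count of 0 allows a level of up to 3 counts of the subset's total.

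Costimulation and T cell contact genes were sparse in both libraries. Cd86, a ligand of the T cell receptor CD28, was at 106 and 85.7 CPM and found in 37 of 88 and 21 of 45 barcodes. Cd40 had 8 and 3 UMIs and Cd80 2 and 0 UMIs. Tnfsf4 and Cd70 had none, and 2 of 11 genes of that list reached the 20 UMIs needed to be compared, neither of them 2-fold apart. The turnover genes March1, a ligase that removes class II, and Cd83, which opposes it, were at 47.3 and 57.1 CPM and 153 and 146 CPM.

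Of the MHC class I genes, B2m and H2-D1 were at higher levels in NaIO3 members, as were the proteases Ctss and Ctsb. B2m, the common light chain of class I, was at 3147 CPM (2984 to 3316) in PBS and 5700 CPM (5453 to 5956) in NaIO3, a ratio of 1.81 (1.69 to 1.94). H2-D1 was at 1802 CPM (1679 to 1931) in PBS and 3360 CPM (3171 to 3558) in NaIO3, a ratio of 1.86 (1.70 to 2.04), and Tap1, which moves peptides into the endoplasmic reticulum, at 47.3 and 103 CPM. The intervals of B2m and H2-D1 did not overlap, but the folds stayed under 2, and Tap1, with 21 and 36 UMIs, was the 1 of 8 genes compared that passed it (background 5.36%). The list's median log2 ratio was 0.62. B2m stood higher in NaIO3 in the 3 subsets with at least 9 barcodes in each library. Levels were 2543 and 4222 CPM in the Cd209a-led, 1653 and 2990.3 CPM in the Xcr1-led and 4418 and 7540.0 CPM in Gpnmb-led barcodes. The Xcr1-led PBS level rests on 9 barcodes, 1 of them with 21939 of 80437 UMIs. RPE barcodes had B2m at 559.6 and 750.2 CPM and H2-D1 at 24.1 and 128 CPM, so the level outside the members was higher in NaIO3 too, and the part of free RNA was not tested.

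**Figure D3:**
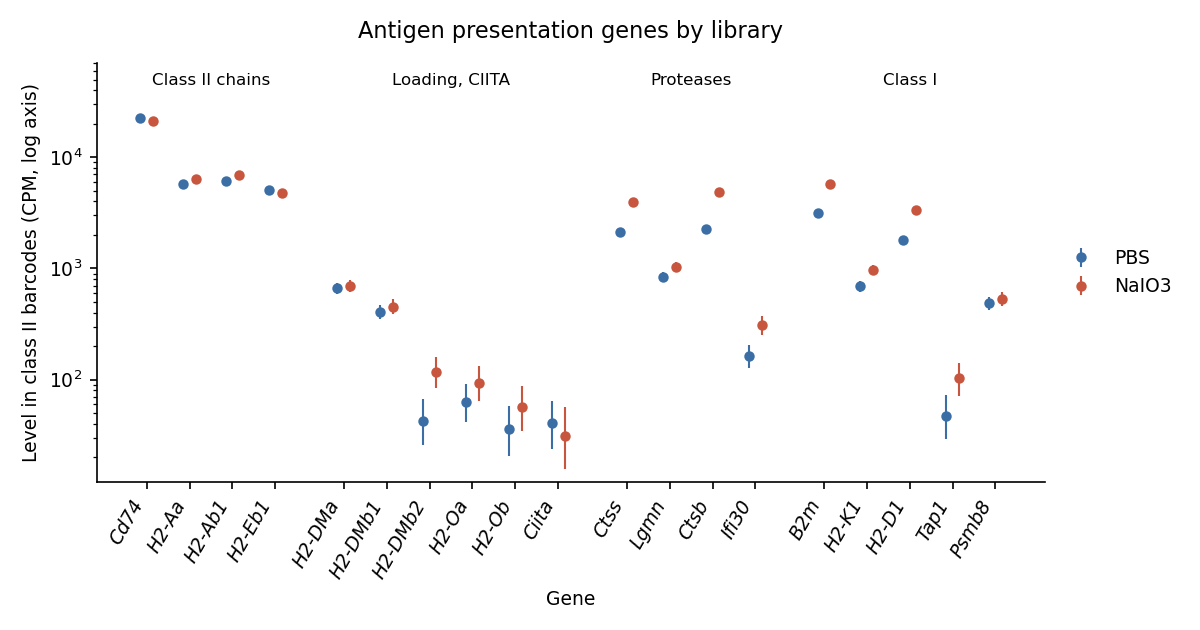
Points give the summed level (CPM, log axis) of antigen presentation genes in PBS and NaIO3 members, and bars the exact 95% Poisson interval. The 4 class II chain genes, whose sum chose the members in both libraries, lie close together, so no lack of change is read from them. B2m (3147 and 5700 CPM), H2-D1 and Ctsb, which the rule did not use, lie apart.

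Among the proteases, cathepsin S (Ctss), which trims the invariant chain, was at 2115 CPM (1982 to 2255) in PBS and 3989 CPM (3782 to 4203) in NaIO3, a ratio of 1.89 (1.73 to 2.05). Cathepsin B (Ctsb) was at 2286 CPM (2148 to 2431) in PBS and 4889 CPM (4659.6 to 5126) in NaIO3, a ratio of 2.14 (1.98 to 2.31). Ifi30, a thiol reductase that opens disulfide bonds of antigens, was at 162 and 309 CPM, and Lgmn, an endopeptidase, at 833 and 1023 CPM. Of 7 cleavage and uptake genes 2, Ctsb and Ctsl, were at least 2-fold higher and 1, the mannose receptor Mrc1, at least 2-fold lower (5.36% and 6.78% of all genes), with a median log2 ratio of 0.92. With a class II minimum of 300 counts per 10000, which leaves 50 and 28 barcodes, the median was -0.37. Ctss was at 4753 and 6484 CPM in the Gpnmb-led and 1107 and 1373 CPM in the Cd209a-led barcodes of PBS and NaIO3.

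Compared with class II-low leukocyte barcodes of the same library, 6 genes, 5 of them on the dendritic marker lists, were among the 15 first-ranked genes in both libraries. With the 4 class II genes left out, 269 of 4186 genes (6.43%) were at least 2-fold higher in PBS members and 261 (6.24%) at least 2-fold lower. In NaIO3 it was 1582 of 10930 genes (14.5%) higher and 1155 (10.6%) lower, where the leukocyte side held 7018801 UMIs against 290519 in PBS. These counts describe groups made from the same barcodes and are no test. Cd209a, a lectin of type 2 dendritic cells, was at 151 against 0 CPM in PBS and 94.3 against 0.570 CPM in NaIO3. Mgl2, another lectin, was at 246 against 27.5 CPM and 137 against 0.142 CPM, and the chemokine receptor Ccr2 at 169 against 17.2 CPM and 117 against 0.855 CPM. Klrd1, a lectin-like receptor, was at 96.9 against 6.88 CPM and 123 against 0.997 CPM. Plbd1, a general dendritic marker, was at 169 against 6.88 CPM and 303 against 7.84 CPM. Amica1, an adhesion molecule of the same list, was at 51.8 against 0 CPM and 111 against 0.570 CPM. In PBS the first rank went to Retnla, a secreted product of macrophages, at 1619 against 3.44 CPM with 51.0% from 1 barcode, and Lyz1 (203 against 10.3 CPM), Ccl24 (99.1 against 3.44 CPM), Ccl7, Cd209f, Clec10a and Cxcl9 also stood among the first 15. Napsa, an aspartic protease, and H2-DMb1 were among the first 15 in PBS, while Xcr1 (54.3 against 0.142 CPM), Clec4b1, Itgae and Il1b were among those in NaIO3. Xcr1 in PBS was at 47.3 CPM in members and had no UMI in the 54 leukocyte barcodes.

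Between the libraries, 237 of 4424 genes with at least 20 UMIs (5.36%) were at least 2-fold higher in NaIO3 members and 300 (6.78%) at least 2-fold lower. Of these calls 44.1% were on the higher side. Of the higher calls 19 and of the lower calls 91 counted as free RNA by the rule given next, and the genes that could be ranked were 215 higher and 199 lower, so the balance turned. With a class II minimum of 300 it was 57.4% (189 higher and 140 lower of 2519 genes), and 51.6% without mixed barcodes. In a sum over members, a different mix of subsets and a different level per barcode cannot be told apart. Genes named next ranked first by the nearer end of their ratio's interval. Before that, 401 genes were set aside as free RNA, those at less than 0.2 of their level among RPE barcodes or in a cluster of other cells.

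On the higher side stood lysosomal and lipid handling genes. Acp5, a lysosomal acid phosphatase of macrophages and osteoclasts, was at 31.5 CPM (17.2 to 52.9) in PBS and 314 CPM (258 to 379) in NaIO3, a ratio of 9.97 (5.69 to 18.8), and found in 11 of 88 and 14 of 45 barcodes. Ctsd, the lysosomal aspartic protease cathepsin D, was at 1926 CPM (1799 to 2059) in PBS and 7237 CPM (6958 to 7525) in NaIO3, a ratio of 3.76 (3.48 to 4.07). Gpnmb, a glycoprotein of lysosomes and melanosomes, was at 354 CPM (300.5 to 413) in PBS and 1729 CPM (1594 to 1872) in NaIO3, a ratio of 4.89 (4.09 to 5.86). Fabp5, a fatty acid carrier, was at 318 CPM (267 to 375) in PBS and 1294 CPM (1178 to 1419) in NaIO3, a ratio of 4.08 (3.37 to 4.96). RPE barcodes had Gpnmb at 139 and 650.1 CPM, Fabp5 at 3.27 and 137 CPM and Ctsd at 2052 and 4213 CPM in PBS and NaIO3, all 3 higher in NaIO3 too. The class II-low leukocytes of NaIO3 had far more, with 7099 CPM of Gpnmb and 25046 CPM of Ctsd, and the part of their free RNA was not tested. In the highest cluster of other cells Gpnmb was at 7913 CPM and Ctsd at 31938 CPM in NaIO3. Both genes thus passed the free RNA limit of 0.2 only narrowly.

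Within the same 3 subsets Ctsd was higher in NaIO3, while Gpnmb and Fabp5 were close in the Gpnmb-led barcodes. The Xcr1-led PBS levels rest on 9 barcodes, 1 of them with 21939 of 80437 UMIs. Ctsd was at 519 and 2137 CPM in the Cd209a-led, 211 and 2001 CPM in the Xcr1-led and 6449.6 and 11608 CPM in the Gpnmb-led barcodes of PBS and NaIO3. Gpnmb in the Gpnmb-led barcodes was at 2743 and 2888 CPM and Fabp5 at 2785 and 2261 CPM. Fabp5 had 0 and 19 UMIs in the Cd209a-led and 0 and 12 in the Xcr1-led barcodes, and the part of free RNA in these counts was not tested. With a class II minimum of 300 the log2 ratio of Fabp5 was 0.71 against 2.03 in all members, that of Acp5 0.99 against 3.32, that of Ctsd 1.08 against 1.91 and that of Gpnmb 3.26 against 2.29.

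Other genes on the higher side were Hpse, a heparanase, and Il18bp, which binds interleukin 18, each with 2 and 21 UMIs and a ratio of 13.3 (3.26 to 117). Gyg, the glycogen primer, had 20 and 77 UMIs and a ratio of 4.88 (2.96 to 8.43). Pld3, a lysosomal nuclease, was at 133 and 500 CPM, Creg1, a lysosomal glycoprotein, at 198 and 597 CPM, the heat shock cochaperone Dnajb1 at 104 and 389 CPM, the noncoding RNA AW112010 at 113 and 414 CPM and Mgst1, a glutathione transferase, at 40.5 and 171 CPM. Ccr7, the receptor that takes dendritic cells to lymph nodes, was at 22.5 and 131 CPM, yet 2 barcodes per library held all of it and 1 barcode 90.0% and 69.6%. Fscn1, an actin bundler of mature dendritic cells, came to 88.9% from 1 NaIO3 barcode, and Sox4 to 88.5%. Those 3 genes describe few barcodes.

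On the lower side stood resident macrophage genes. Pf4, a chemokine of macrophages and platelets, was at 804 CPM (723 to 892) in PBS and 163 CPM (123 to 211) in NaIO3, a ratio of 0.203 (0.15 to 0.268), and found in 40 of 88 and 12 of 45 barcodes. Mrc1 was at 144 CPM (111 to 184) in PBS and 20.0 CPM (8.04 to 41.2) in NaIO3, a ratio of 0.139 (0.0536 to 0.303), and found in 33 of 88 and 6 of 45 barcodes. F13a1, a transglutaminase subunit, had 48 and 1 UMIs (ratio interval 0.000656 to 0.154). Folr2, a folate receptor (chromosome 7, 101839988 to 101857194), had 40 and 1 UMIs (0.000784 to 0.187), and the lectin Clec10a 46 and 1 UMIs (0.000684 to 0.162). Lyve1, a hyaluronan receptor, and Cd209f, a lectin, each had 31 and 0 UMIs. With a floor of 3 counts over the NaIO3 members, both were at least 8.15-fold lower, while the interval of the ratio, which counts the error of both libraries, ends at 0.160. In PBS 344 of the 357 UMIs of Pf4 lay in the Folr2-led subset, which had only 2 NaIO3 barcodes, and the part of the mix of subsets in these ratios was not tested.

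Of the 15 resident macrophage markers, 14 could be compared, 7 were at least 2-fold lower (background 6.78%), none was 2-fold higher, and the median log2 ratio was -1.001. Those at 2-fold or more were Pf4, Mrc1, F13a1, Folr2, Lyve1, Cd163 and Stab1. Broader macrophage genes stayed within 2-fold, with Csf1r at 435 and 291 CPM, Adgre1 at 266 and 180 CPM, C1qa at 3534 and 2154 CPM and C1qb at 3194 and 2709 CPM. In RPE barcodes C1qa was at 14.8 and 208 CPM, and the part of free RNA in it was not tested.

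Several genes on the lower side rested on few barcodes. Retnla, a secreted product of alternatively activated macrophages (chromosome 16, 48842551 to 48844461), had 719 and 0 UMIs, at least 189-fold lower by that floor (the interval ends at 0.00652), and 51.0% of the PBS counts came from 1 of 8 barcodes. Ccl24, an eosinophil chemokine, had 44 and 0 UMIs, at least 11.6-fold lower by that floor (the interval ends at 0.111), with 63.6% from 1 barcode. Lyz1, a lysozyme, was at 203 and 34.3 CPM with 56.7% from 1 barcode, and in members with macrophage genes its log2 ratio was 0.34. Cxcl10, an interferon-induced chemokine, had 46 and 2 UMIs in 3 and 2 barcodes. Chad and Krt15, of cartilage and of epithelium, came to 87.5% and 87.0% from 1 PBS barcode, and Krt15 turned to a log2 ratio of 3.87 without mixed barcodes. More widely spread was Mbp, known from myelin, at 139.6 and 14.3 CPM in 31 and 5 barcodes, with 11.3% of the PBS counts from 1 barcode. C4b, a complement component, had 23 and 1 UMIs in 11 and 1 barcodes and a ratio of 0.0552 (0.00134 to 0.340).

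Shares of barcodes with a UMI were compared at equal depth. For Mgl2, Ccr2, Xcr1, Pf4 and C1qa the intervals of the libraries overlapped, and for Mrc1 and Clec10a they did not. Mgl2 was found in 26.1% (17.3 to 36.6) in PBS and 13.3% (5.05 to 26.8) in NaIO3, Ccr2 in 20.5% (12.6 to 30.4) in PBS and 26.7% (14.6 to 41.9) in NaIO3 and Xcr1 in 7.95% (3.26 to 15.7) in PBS and 13.3% (5.05 to 26.8) in NaIO3. RPE barcodes had 0% and 0.2% for Mgl2 and none for Ccr2 and Xcr1 in both libraries. Clec10a was found in 19.3% (11.7 to 29.1) in PBS and 0 of 45 barcodes in NaIO3 (1 of 45 before thinning). By the floor of 3 this count of 0 allows a share of barcodes with a UMI at this depth of up to 6.67%. The exact interval ends at 7.87%, and neither limits the share of cells expressing Clec10a. Mrc1 was found in 27.3% (18.3 to 37.8) in PBS and 4.44% (0.543 to 15.1) in NaIO3 and Pf4 in 42.0% (31.6 to 53.0) in PBS and 20.0% (9.58 to 34.6) in NaIO3, against 1.4% and 1.2% for Pf4 in RPE barcodes. The median depths are those given above (4367.5 and 6626 UMIs in members, 11491 and 9724.5 in RPE barcodes). Before thinning the shares of Mgl2 were 30.7% and 15.6%, those of Xcr1 9.09% and 22.2%, those of Ccr2 27.3% and 18 of 45 barcodes, those of Clec10a 19.3% and 2.22%, those of C1qa 70.5% and 88.9% and those of Gpnmb 26.1% and 91.1%. The unthinned shares of Mrc1 were 37.5% and 13.3% and those of Pf4 45.5% and 26.7%. C1qa was found in 69.3% (58.6 to 78.7) in PBS and 71.1% (55.7 to 83.6) in NaIO3, and in RPE barcodes in 4.81% and 47.4%. Gpnmb was found in 21.6% (13.5 to 31.6) in PBS and 71.1% (55.7 to 83.6) in NaIO3, below the 30.9% and 84.0% of RPE barcodes, so no difference is read from its share.

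**Figure D4:**
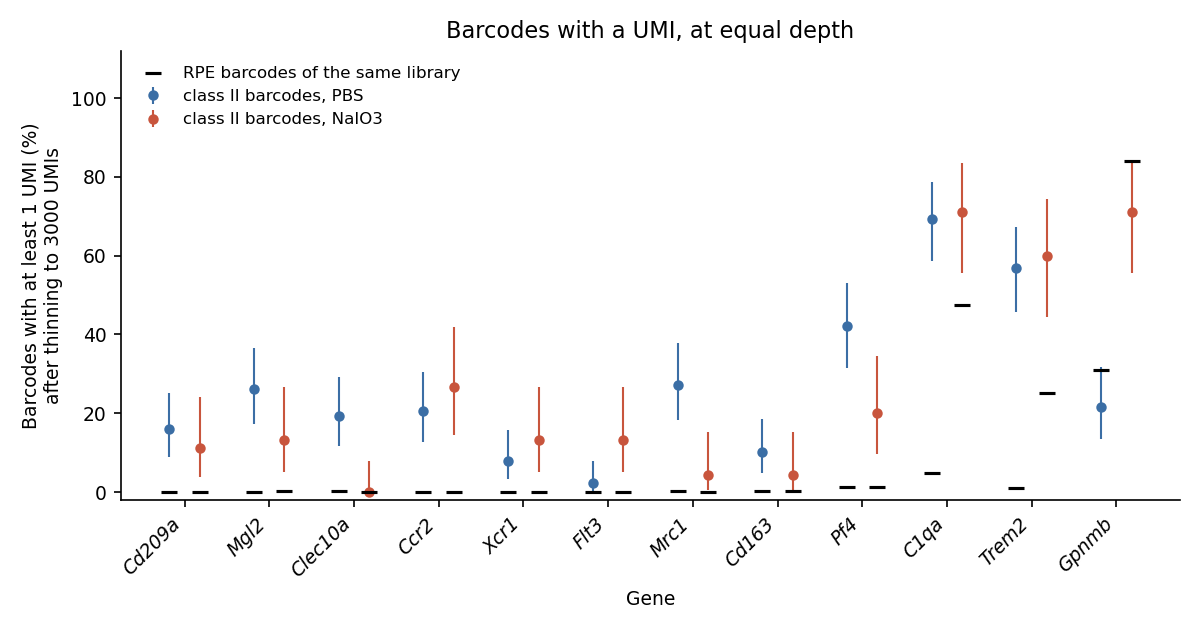
Share of member barcodes with at least 1 UMI of each gene after thinning to 3000 UMIs, with exact 95% intervals, for PBS and NaIO3, and RPE barcodes of the same library as black dashes. The intervals of Mrc1 and Clec10a stand lower in NaIO3 without overlap, while those of Pf4 and Mgl2 overlap between the libraries. Gpnmb lies below the RPE dashes in both libraries.

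Lectin, chemokine and complement genes mostly had ratios below 1, 9 of 11, 12 of 15 and 7 of 7 of those compared, where the median of all genes was 0.0066 on the log2 scale. Of all genes 6.78% were at least 2-fold lower. Among 11 comparable C-type lectins and scavenger receptors 3 were at least 2-fold lower (Cd209f, Clec10a and Cd163), none higher, and the median log2 ratio was -0.84. Cd209a was at 151 CPM (117 to 192) in PBS and 94.3 CPM (64.9 to 132) in NaIO3 and Mgl2 at 246 CPM (202 to 296) in PBS and 137 CPM (101 to 182) in NaIO3, a ratio of 0.559 (0.389 to 0.791). Of 15 comparable chemokines and cytokines 6 were at least 2-fold lower and 1 higher, with a median of -0.50. Lower were the neutrophil attractant Cxcl2, the cytokine Il18 and 4 CC chemokines, among them Ccl4 and Ccl6. Ccl6 was at 403 CPM (346 to 467) in PBS and 149 CPM (111 to 195) in NaIO3 and Cxcl2 at 229.7 and 68.6 CPM. Ccl5 was higher, at 81.1 and 249 CPM, with 83.3% and 44.8% from 1 barcode. The chemokine receptors Ccr2 and Cx3cr1 were at 169 and 117 CPM and 257 and 154 CPM. Of 7 comparable complement genes 1, the receptor C5ar1, was at least 2-fold lower, with 89 and 28 UMIs, about the background share, and a list median of -0.63.

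Lysosomal genes stood on the other side. All 12 lysosome genes had ratios above 1, and 4 of them were at least 2-fold higher, among them Ctsz, Psap and Atp6v0d2 (background 5.36%). Ctsz, a cathepsin, was at 714 CPM (638 to 797) in PBS and 1743 CPM (1607 to 1887) in NaIO3, and Psap, the precursor of lipid-degrading activators, at 2979.8 CPM (2821 to 3145) in PBS and 6323 CPM (6062 to 6592) in NaIO3. The median log2 ratio was 0.72, and 0.07 with a class II minimum of 300. Of 11 comparable genes of lipid-associated macrophages 6 were at least 2-fold higher (Spp1, Gpnmb, Fabp5, Ctsd, Cd63 and Plin2) and none lower, with a median of 1.08 and of 0.10 with that minimum. Trem2, the lipid receptor of that state, was at 637 CPM (565 to 716) in PBS and 880 CPM (784 to 984) in NaIO3, a ratio of 1.38 (1.17 to 1.63), and Apoe at 28082 and 41403 CPM. Spp1, osteopontin, was at 322 and 3249 CPM, while RPE barcodes had 3.82 and 1345 CPM and the leukocytes of NaIO3 47020.3 CPM, so it counted as free RNA. Lpl, a lipase of that list, was at 164 and 97.1 CPM.

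Markers of type 1 and type 2 dendritic cells stood on different sides of 1, and the difference between the lists was not tested. Of 8 comparable type 1 markers 2, Itgae and Wdfy4, were at least 2-fold higher (background 5.36%) and none lower, with a median log2 ratio of 0.73. Irf8, the transcription factor of that lineage, was at 372 CPM (317 to 433) in PBS and 611 CPM (532 to 699) in NaIO3 and the hydrolase Naaa at 142 and 220 CPM. Itgae, an integrin, had 5 and 17 UMIs. Of 7 comparable type 2 markers 2, Clec10a and Tnip3, were at least 2-fold lower (background 6.78%) and none higher, with a median of -0.68. Klrd1 was at 96.9 and 123 CPM. Flt3 had 9 and 17 UMIs and a ratio of 2.40 (1.01 to 6.10). The part of the mix of subsets in these medians was not tested.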

How the data were processed

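The authors deposited UMI counts, whole numbers without normalisation, as 1 matrix of genes by barcodes for each library. The submitters' processing notes name Cell Ranger 3.0.2 and mm10. Annotation release, strand setting and cell calling were not stated, and strand-overlapping genes cannot be told apart. Coordinates come from GENCODE M21 (GRCm38), where 27645 of 27998 gene rows had an identifier, and promoters from RefSeq GRCm38.p6.

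Member counts were summed per library and divided by the total to give CPM. Poisson intervals were used for levels, conditional binomial intervals for ratios and Clopper-Pearson intervals for shares. A gene was compared with 20 UMIs or more over both libraries, and called at a ratio of at least 2 or at most 0.5. A count of 0 was set to a floor of 3 counts over the library's members. Class II-low leukocyte barcodes had a class II sum under 30, an RPE sum under 100 and at least 10 counts per 10000 over Tyrobp, Fcer1g, Laptm5, Coro1a and Ptprc, and RPE barcodes an RPE sum of at least 100. Subsets came from 1500 variable genes without the 4 class II genes, 20 principal components, 10 neighbours and Leiden resolution 0.8, with no doublets removed. Shares were thinned to 3000 UMIs, with 500 RPE barcodes per library as background.

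Named genes were the members of 41 gene lists (349 of 357 genes matched, 22 of the lists being cell type markers) and the first 15 higher and first 15 lower by interval. They were joined by the first 15 over class II-low leukocytes in each library and the 10 leading genes of each subset by fold. Mitochondrial, ribosomal protein, haemoglobin, predicted and sex-linked marker genes were left out of the ranks. The members and lists were chosen with earlier results of these data known. The ratio intervals were tried on simulated independent Poisson counts, which is the model they assume. That trial does not cover genes whose UMIs come mostly from 1 barcode. Python 3.11.15, numpy 2.4.6, scipy 1.17.1, pandas 2.3.3, scanpy 1.11.5 and matplotlib 3.10.9 were used, and edgeR 4.0.16 in R 4.3.3 for an alternative scaling of the sums.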

Additional observations from a re-analysis of the deposited data

How the results depend on the processing

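With 1 library per group no replicate could be left out. No paired analysis was possible because each group has 1 library and no replicate numbers. A mitochondrial limit of 10% gave member shares of 2.66% and 1.95%. Genes at least 2-fold higher and lower numbered 237 and 300, and 63 and 94 at 50 UMIs or more (of 1918), 2312 and 2023 with no UMI minimum (of 13279), and 126 and 125 in members with dendritic genes (26 and 20 barcodes, of 1738). With a class II minimum of 300 there were 140 lower genes (of 2519), fewer barcodes and genes being tested. The Folr2-led subset held 51 barcodes, and 21 at Leiden resolution 1.2. Each library clustered alone gave 7 subsets in place of 4. Of 351 alternative values of named genes 347 kept their sign. Among those, 45 lay outside the interval of the main ratio, such as Gpnmb at 3.54 against 2.29 (log2) with a class II minimum of 60. The values that changed sign were Mgst1 at -0.36 in members with dendritic genes and Lyz1 at 0.34 in members with macrophage genes. Krt15 also did, at 3.87 without mixed barcodes and 3.35 with the class II minimum of 300 (log2), since 1 PBS barcode held most of it. Of 139 list medians 132 kept their sign. With the class II minimum of 300 the median of the cleavage list was -0.37 and that of the oxidative stress and iron list -0.49. The cause was not tested for Mgst1, Lyz1 and the lists. The settings without mixed barcodes and with the minimum of 300 were chosen after seeing the data. Genes with few UMIs, such as Ciita (18 and 11), have wide intervals at this depth and number of barcodes. The median of the loading list was 2.46 in members with macrophage genes, against 0.58. That filter kept 64 of 88 PBS and 42 of 45 NaIO3 members, and the part of free RNA in it was not tested.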

Other observations

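Interferon response genes were near the level of all genes as a list, with a median log2 ratio of -0.05 over 12 genes compared. Of these, Cxcl10, Oasl2 and Gbp2 were at least 2-fold lower (6.78% of all genes were) and none higher. In PBS 52.2% of the Cxcl10 UMIs came from 1 barcode. Of the 23 Gbp2 UMIs in the Cd209a-led subset 78.3% came from 1 barcode. Isg15, a ubiquitin-like protein, was at 65.3 and 51.4 CPM in PBS and NaIO3, and Irf7, a transcription factor of the response, at 60.8 and 100 CPM. Cxcl9, a chemokine induced by interferon gamma, had 25 and 32 UMIs, of which 96.0% and 96.9% came from 1 barcode.

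Division genes were read at few UMIs. Mki67, a marker of cycling cells, had 0 and 5 UMIs in 0 of 88 and 4 of 45 barcodes, and Top2a, a topoisomerase of dividing cells, 2 and 6 UMIs. Stmn1, Tubb5 and Hmgb2 could be compared, with ratios of 1.41, 1.52 and 1.73. Cdkn1a, an inhibitor of the cycle, was at 176 and 154 CPM.

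Immediate early genes, which respond within minutes to handling and other stimuli, had a median log2 ratio of -0.19 over 12 genes. Egr1 was at 115 and 51.4 CPM, at least 2-fold lower, while Fos was at 1014 and 900 CPM and Jun at 909.9 and 897 CPM. Among 6 genes of oxidative stress and iron none was 2-fold apart. Hmox1, which breaks down heme, was at 87.8 and 100 CPM, and the ferritin chains Fth1 and Ftl1 were at 11974 and 15786 CPM and 10003 and 14369 CPM. Metallothionein RNA was at higher levels in RPE barcodes (19375 and 26189 CPM summed over Mt1, Mt2 and Mt3) than in members (3266 and 3514 CPM), and all 3 genes counted as free RNA.

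The monocyte markers Plac8 and Fn1 stood on different sides, at 113 and 300 CPM and 67.6 and 28.6 CPM, and Ly6c2, which marks classical monocytes, had 0 and 4 UMIs. The microglia marker Tmem119 was at 131 and 48.6 CPM, P2ry12 had 12 and 5 UMIs, and Sall1, which defines microglia, was at 0 in both libraries.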
